A study of Mus musculus with 8 samples.

Results

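The genes described here are 58 homeobox genes of the mouse, made up of 38 Hox genes from the HoxA, HoxB, HoxC and HoxD clusters and 20 other developmental homeobox genes from the Dlx, Lhx, Six2/Six3, Nkx2, Pax, Otx, Emx, Meis and En families. They were taken by name from a list, out of 22367 protein-coding genes annotated on the mm9 genome. No measured value entered the choice, but earlier results of these data were known when the list was made. An HTT ChIP-seq peak was assigned to a gene when it overlapped the gene body or the window of 5 kb on either side of the gene start by at least 1 base.

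HTT ChIP-seq was performed on cortex of 4-month-old male mice of 2 genotypes. Htt+/+ mice carry normal Htt, and HttQ111/+ mice carry 1 knock-in Htt copy with a lengthened CAG tract at the normal locus. Each genotype was either untreated or had received 500 µg of a pan-huntingtin antisense oligonucleotide (ASO) into 1 cerebral ventricle 4 weeks before the ipsilateral cortex was taken. The ASO lowers both Htt alleles, so it is not selective for the mutant copy, and no group received a control oligonucleotide. Each of the 4 groups was 1 ChIP library from pooled mice (3 per the labels, 2 per the methods of the study), with 1 control merged from 4 inputs. With 1 library per group there was no replicate and no test, and every interval below covers counting error only. Genotype or treatment cannot be told apart from the differences between single libraries. The lists held 40112 to 47473 peaks per library on the main chromosomes, and 79.6% to 87.3% of peaks in a library rested on 2 to 4 reads at the summit. The ASO-treated HttQ111/+ library stood apart from the rest. Of its peaks in all protein-coding windows 4.72% lay within 1 kb of a gene start, against 12.4% to 17.3% in the other 3 libraries, and their median GC content was 48.8% against 52.6% to 54.3%.

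Homeobox proteins bind DNA through the homeodomain and set cell identity in the embryo. Hox genes lie in order along their clusters, the anterior genes acting in the hindbrain and the posterior genes in the trunk, limbs and tail, while the Otx, Emx, Dlx, Lhx, Nkx2 and Pax genes, Six3 among others, pattern the forebrain and other head structures. In adult tissues where they are not used, many of these loci are kept silent by Polycomb complexes, which deposit H3K27me3 over CpG-rich DNA. The peak lists hold no expression data, so silence of the members in this cortex was not measured. CpG and GC content could be checked. The median ratio of CG dinucleotides observed to those expected from the base content, within 1 kb of the start, was 0.601 for the members. For all protein-coding genes it was 0.468. Among the members this ratio ran from 0.17 at Hoxc4 to 0.93 at En2, so not every annotated member start was CpG-rich. The start is the outermost upstream end of the annotated gene, and Hoxc4 is annotated as 17908 bases long. Other annotated starts were not used for base content. The median GC content within 1 kb of the start was 56.1% for the 58 members against 51.1% for all protein-coding genes, and 30 of the 58 members fell in the top quartile of promoter GC (above 55.9%). Of the others, 13 fell in each of the third and second quartiles and 2, Hoxb3 and Hoxb4, in the lowest.

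A recurrent region was defined as merged peaks with q below 0.01 in at least 2 of the 4 libraries. To show what the summits look like, 151 bases around the summit are printed for 4 of the regions ranked highest by the number of libraries and then by the lowest fold enrichment among those libraries, with the summit outside untranslated sequence. They are the plus strand of mm9, with each CG dinucleotide in capitals. The Hoxa5 region, with peaks in 3 libraries, ranked above those of Hoxb2 and Otx1 but is not printed, so these are not simply the top of the ranking.

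Hoxb3 intron, chr11:96203347-96203497: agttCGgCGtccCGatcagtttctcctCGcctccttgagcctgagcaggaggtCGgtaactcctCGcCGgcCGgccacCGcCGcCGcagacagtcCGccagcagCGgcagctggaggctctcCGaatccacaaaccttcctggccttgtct
Hoxa3 coding exon upstream of Hoxa2, chr6:52119989-52120139: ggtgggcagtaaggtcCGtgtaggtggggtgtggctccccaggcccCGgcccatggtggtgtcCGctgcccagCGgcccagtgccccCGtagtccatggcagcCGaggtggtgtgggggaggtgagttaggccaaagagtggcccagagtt
Hoxb2 coding exon, chr11:96214464-96214614: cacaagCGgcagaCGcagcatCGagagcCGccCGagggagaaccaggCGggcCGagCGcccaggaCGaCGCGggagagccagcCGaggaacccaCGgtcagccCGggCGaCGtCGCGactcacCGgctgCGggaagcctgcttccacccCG
Otx1 intron, chr11:21902085-21902235: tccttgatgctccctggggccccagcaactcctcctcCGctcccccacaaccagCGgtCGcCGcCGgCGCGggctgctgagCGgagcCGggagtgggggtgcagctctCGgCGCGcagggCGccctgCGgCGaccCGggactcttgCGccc

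These stretches had a GC content of 65.6% to 76.2% and held 6 CG dinucleotides upstream of Hoxa2 and up to 21 at Hoxb2. The Hoxb3 and Otx1 stretches lie in introns, the other 2 in protein-coding sequence. The Hoxb3 stretch also overlaps an exon of Gm11536.

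HTT peaks were found at 26 of the 58 members in untreated Htt+/+ cortex (44.8%, exact 95% interval 31.7% to 58.5%), against 48.7% of all protein-coding genes. With the ASO in Htt+/+ mice, 28 members had a peak (48.3%, 35.0% to 61.8%), against 47.4%. In untreated HttQ111/+ cortex 40 members had a peak (69.0%, 55.5% to 80.5%), against 53.2%. With the ASO in HttQ111/+ mice 12 members had a peak (20.7%, 11.2% to 33.4%), against 39.9%. The members were thus within counting error of the protein-coding share in both Htt+/+ libraries, above it in the untreated HttQ111/+ library and below it in the ASO-treated HttQ111/+ library.

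Among the 5589 protein-coding genes in the top quartile of promoter GC the shares were 63.9%, 63.8%, 72.5% and 48.1% in the same order of libraries. The 30 members of that quartile had a peak at 12, 10, 21 and 2 genes. The members' windows were shorter, with a median of 10.9 kb against 20.4 kb for all protein-coding genes, and a longer window takes in more peaks. A list of 140 other homeobox genes was chosen for family alone, also with earlier results of these data known. Its shares were 64.3%, 67.9%, 76.4% and 30.0%, with a median window of 12.9 kb.

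**Figure D1:**
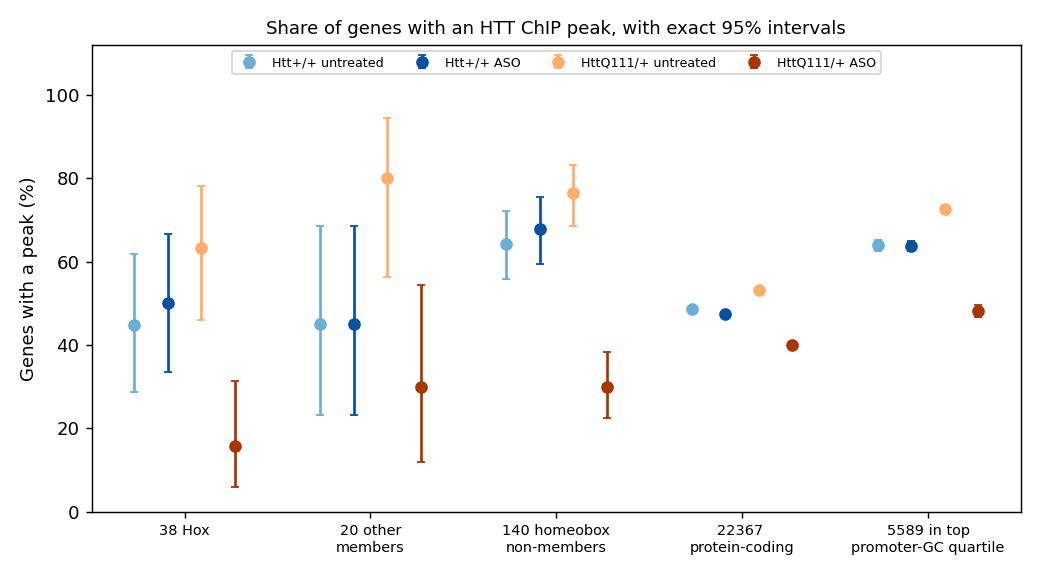
Percentage of genes with at least 1 HTT ChIP peak within 5 kb of the start or in the gene body (y axis) for 5 groups of genes (x axis). Points are single libraries, coloured by genotype and treatment, and bars are exact 95% binomial intervals. In all 5 groups the untreated HttQ111/+ library had the highest share and the ASO-treated HttQ111/+ library the lowest, with 63.2% and 15.8% for the 38 Hox genes and 53.2% and 39.9% for all protein-coding genes.

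Counted as distinct peaks over merged windows, which total 1.071 Mb for the members, the 4 libraries held 33, 40, 69 and 13 peaks (Htt+/+ untreated, Htt+/+ ASO, HttQ111/+ untreated, HttQ111/+ ASO). These are 30.8, 37.3, 64.4 and 12.1 peaks per Mb. Relative to all protein-coding windows the density was 1.54 times as high in the untreated Htt+/+ library (exact Poisson interval 1.06 to 2.16). It was 2.07 times as high with the ASO in Htt+/+ mice (1.48 to 2.82) and 2.81 times in untreated HttQ111/+ mice (2.19 to 3.56). In the ASO-treated HttQ111/+ library the ratio was 0.76 (0.405 to 1.3), an interval that includes 1. Hox windows had ratios of 2.2, 2.85, 3.95 and 0.766, and the other 20 members 1.13, 1.59, 2.11 and 0.756. The homeobox genes outside the member list had 1.55, 1.78, 2.03 and 0.872, so a higher density than all protein-coding windows was not particular to the members.

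The excess depended on the window and on the genes used for comparison. With only the 5 kb on either side of the start counted, a window chosen after seeing the data, the members had 23, 30, 51 and 8 peaks, which is 1.39, 1.83, 2.45 and 0.916 times the protein-coding density in the same window. The homeobox genes outside the member list had 1.95, 2.19, 2.5 and 0.856 times that density. Set against the top promoter-GC quartile in the same window, the ratios of the members were 1.0, 1.18, 1.55 and 1.07. Of these, the untreated HttQ111/+ library was the one in which the interval of the members (72.6 to 128.0 peaks per Mb) lay above the quartile's density (62.9). Within 1 kb of the start the ratios of the members were 0.732, 0.772, 0.879 and 0.654 relative to that quartile, from 11, 15, 20 and 2 peaks. These ratios were within counting error of 1, since the members' intervals of 47.3 to 170.0, 72.3 to 213.0, 105.0 to 266.0 and 2.09 to 62.3 peaks per Mb include the quartile's density in each library (167.0, 196.0 and 26.4 in the last 3). The part of GC content in the density of the wider windows was not tested.

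In all 4 libraries together 155 distinct peaks lay in the members' windows, 23 of them in the windows of more than 1 member. Their median GC content was 60.0%, 61.5%, 61.6% and 58.7%, compared with 52.6%, 53.4%, 54.3% and 48.8% for peaks in all protein-coding windows. Peaks with 5 or more reads at the summit made up 45.5%, 50.0%, 43.5% and 46.2% of the members' peaks, against 22.2%, 30.4%, 26.5% and 18.0%. Of the members' peaks, 16 of 33, 16 of 40, 21 of 69 and 7 of 13 overlapped a peak of another library (30.4% to 53.8%), against 22.0%, 23.7%, 21.7% and 14.6%. In each library the members' peaks were therefore richer in GC, more often of 5 or more reads and more often shared than the peaks of all protein-coding windows, as values without a test. The sets also differed in position. Within 1 kb of a start lay 30.3%, 35.0%, 26.1% and 15.4% of the members' peaks, against 12.4%, 17.3%, 15.6% and 4.72%. The part of position in the differences of GC, reads and sharing was not tested. The fold enrichment of the members' peaks was not higher throughout. Its median was 5.09, 4.8, 4.82 and 3.26 at the members against 4.97, 4.96, 4.98 and 4.41. Peaks with q below 0.01 made up 81.8%, 90.0%, 95.7% and 61.5% at the members against 76.2%, 78.8%, 88.1% and 74.9%, a lower share in the ASO-treated HttQ111/+ library. By position, 62 of the 155 summits lay in introns, 41 in coding exons, 26 in untranslated regions, 25 between genes and 1 in a non-coding exon.

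**Figure D2:**
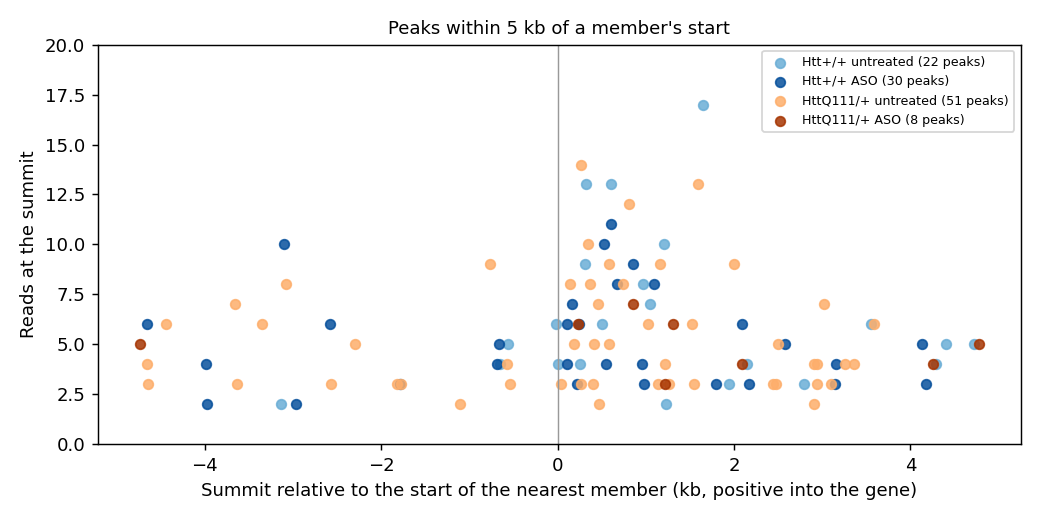
Number of reads at the summit (y axis) against the distance of the summit from the start of the nearest member (x axis, kb, positive into the gene), for peaks with the summit within 5 kb of a start. Each point is 1 peak and colours mark the libraries. The peaks with more than 10 reads, up to 17, lie within the first 2 kb of the gene, and 18 of 22, 21 of 30, 36 of 51 and 7 of 8 summits lie downstream of the start (Htt+/+ untreated, Htt+/+ ASO, HttQ111/+ untreated, HttQ111/+ ASO).

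Recurrent regions were present at 24 of 58 members (41.4%, exact 95% interval 28.6% to 55.1%), against 23.8% of all protein-coding genes, 39.6% of those in the top promoter-GC quartile and 47.9% of the 140 other homeobox genes. The members held 27 such regions, of which 23 had a peak in 2 libraries, 4 in 3 libraries and 0 in all 4. Peaks of the untreated HttQ111/+ library contributed to 21 regions, those of each Htt+/+ library to 15 and those of the ASO-treated HttQ111/+ library to 7. Without the untreated HttQ111/+ library 10 members kept a recurrent region (17.2% against 12.4% of all protein-coding genes), and the 2 shares were then closest. Without the untreated Htt+/+ library 15 members did (25.9% against 15.0%), without the ASO-treated Htt+/+ library 18 (31.0% against 15.1%) and without the ASO-treated HttQ111/+ library 20 (34.5% against 19.7%). The midpoint lay within 1 kb of a member's start in 11 of the 27 regions.

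Hoxb3, an anterior HoxB gene that acts in the hindbrain, had the highest fold enrichment of all members. Its recurrent region (chr11:96203175-96203592), in an intron 18744 bases downstream of the annotated gene start, had a fold enrichment over input of 10.9 in untreated Htt+/+, 11.7 in ASO-treated Htt+/+ and 6.93 in untreated HttQ111/+ cortex, and no peak with the ASO in HttQ111/+ mice. The reads at the summit numbered 7, 8 and 4. The window held 1 peak in the ASO-treated HttQ111/+ library, elsewhere in the gene, with a fold enrichment of 3.26 from 4 reads. The GC content within 1 kb of the annotated start of Hoxb3 was among the lowest of the members, at 45.1%.

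Hoxa5, a central HoxA gene used in trunk and lung development, had a recurrent region in its coding exon in 3 libraries. Fold enrichment was 4.3, 3.37 and 3.07 in untreated Htt+/+, ASO-treated Htt+/+ and untreated HttQ111/+ cortex, from 13, 11 and 9 reads, and there was no peak in the ASO-treated HttQ111/+ library. These were lower fold enrichments than at Hoxb3 from more reads, since the value is relative to the local input.

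Hoxd3 and the pair Hoxa2 and Hoxa3 were the members whose 3-library region included the ASO-treated HttQ111/+ library. At the start of Hoxd3 (chr2:74549991-74550425, untranslated region) fold enrichment was 3.64 in ASO-treated Htt+/+, 2.92 in untreated HttQ111/+ and 2.84 in ASO-treated HttQ111/+ cortex, from 7, 5 and 6 reads, with no peak in untreated Htt+/+ cortex. Upstream of Hoxa2, in a coding exon of Hoxa3 (chr6:52119904-52120228), the values in the same 3 libraries were 6.28, 3.64 and 3.59, from 6, 3 and 5 reads. A second region, in a coding exon of Hoxa2 (chr6:52114254-52114499), had 5.9 and 4.96 in the untreated and ASO-treated Htt+/+ libraries, from 7 and 8 reads. The annotation gives Hoxa3 a model of 49981 bases that overlaps Hoxa2 and takes in Hoxa4, Hoxa5 and Hoxa6, so peaks at Hoxa2 and Hoxa5 count for Hoxa3 as well.

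**Figure D3:**
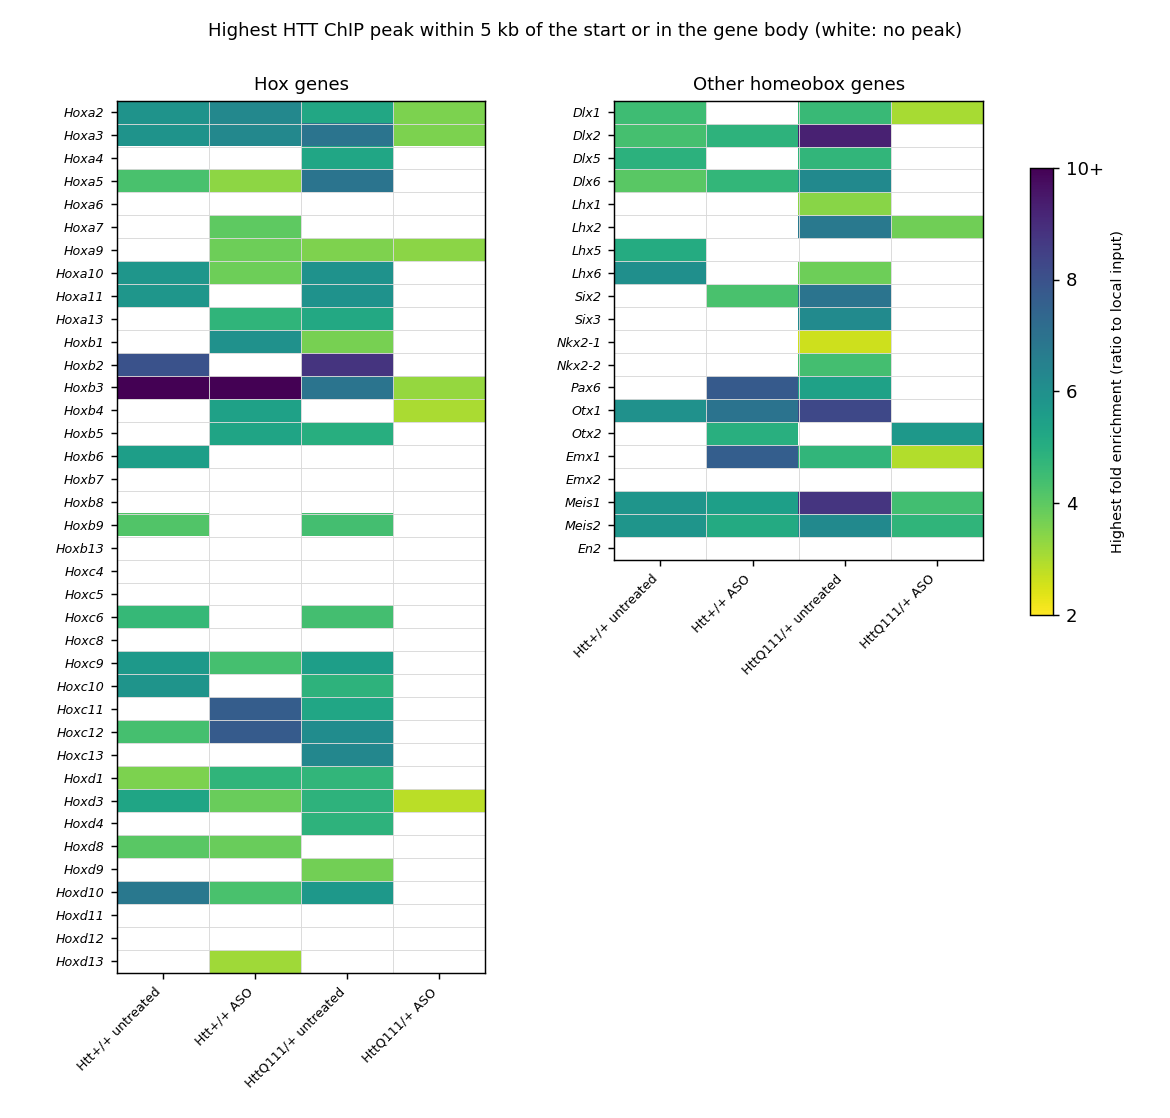
Highest fold enrichment (ratio of ChIP to local input at the summit, colour scale) of any peak in the window of each member (rows) in each library (columns). White cells have no peak. The column of the ASO-treated HttQ111/+ library is the emptiest, with 12 of 58 members filled, and the darkest cells are those of Hoxb3 in the 2 Htt+/+ libraries (10.9 and 11.7).

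Of the remaining HoxB genes, Hoxb2, a hindbrain patterning gene, had the deepest peaks. Its coding exon region (chr11:96214214-96214959) had a fold enrichment of 7.98 from 17 reads in untreated Htt+/+ cortex and 8.79 from 13 reads in untreated HttQ111/+ cortex, and no peak in either ASO-treated library. Hoxb9, a posterior gene, had the same pattern in an intron, with 4.16 from 10 reads and 4.39 from 9 reads. Hoxb5 and Hoxb1, in contrast, had their regions in the ASO-treated Htt+/+ and untreated HttQ111/+ libraries, with 5.34 and 4.99 upstream of Hoxb5 and 5.96 and 3.64 beyond the end of Hoxb1. The HoxB genes Hoxb7, Hoxb8 and Hoxb13, had no peak in any library.

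In HoxC the recurrent regions lay at posterior genes. Downstream of Hoxc12 fold enrichment was 4.36 and 6.12 in the untreated Htt+/+ and HttQ111/+ libraries. In a coding exon near the start of Hoxc10 the values in these libraries were 5.85 and 4.83, from 4 and 3 reads. Hoxc9 had 2 regions, one upstream of the start in both Htt+/+ libraries (5.71 and 4.3) and one in a coding exon in the ASO-treated Htt+/+ and untreated HttQ111/+ libraries (4.36 and 5.53, from 7 reads each). No HoxC gene had a peak in the ASO-treated HttQ111/+ library (0 of 9), and Hoxc4, Hoxc5 and Hoxc8 had none in any library.

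In HoxD, Hoxd1, the most anterior gene of the cluster, had a coding exon region with many reads and modest fold enrichment, 3.58 from 13 reads in untreated Htt+/+ and 4.72 from 14 reads in untreated HttQ111/+ cortex. Hoxd10, a limb and spinal cord patterning gene, had a region in its untranslated sequence in both Htt+/+ libraries, with 6.79 and 4.3. In HoxA the posterior gene Hoxa11 had 5.79 and 4.83 in an intron in both untreated libraries. Hoxa9 had a region in its intron in both HttQ111/+ libraries, with 3.55 untreated and 3.4 with the ASO. The last of the HoxA regions, in the coding exon of Hoxa10, had 3.76 from 10 reads in ASO-treated Htt+/+ and 3.43 from 8 reads in untreated HttQ111/+ cortex. Hoxd11, Hoxd12 and Hoxa6 had no peak in any library.

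By position along the clusters, 7 of 11 anterior Hox genes (paralog groups from Hox1 to Hox4), 2 of 11 central genes (Hox5 to Hox8) and 8 of 16 posterior genes (Hox9 to Hox13) had a recurrent region. The central genes had the fewest members with a peak in the untreated HttQ111/+ library (3 of 11, against 9 of 11 anterior and 12 of 16 posterior genes) and none in the ASO-treated HttQ111/+ library. The shares of anterior, central and posterior genes with a recurrent region were 63.6%, 18.2% and 50.0%, against 23.8% of all protein-coding genes. The shares of all protein-coding genes with a peak were 53.2% in the untreated and 39.9% in the ASO-treated HttQ111/+ library. Neighbouring genes share windows and are not independent, and the difference along the cluster was not tested.

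Each cluster was also taken as a whole, from its first to its last member with 5 kb added at both ends. Over the 4 clusters (525.0 kb) the libraries held 25, 21, 40 and 8 peaks in the order used above. Relative to the whole genome this was 2.76 times (exact Poisson interval 1.79 to 4.08), 2.51 times (1.55 to 3.84), 4.11 times (2.93 to 5.59) and 0.972 times (0.42 to 1.91) the peak density. The flanks of equal length on both sides held 30.5, 24.8, 36.2 and 25.7 peaks per Mb, and the density within the clusters was 1.56, 1.62, 2.11 and 0.593 times that of the flanks. The value below 1 in the ASO-treated HttQ111/+ library rests on 8 peaks, and the interval of the clusters (6.58 to 30.0 peaks per Mb) includes the density of the flanks. Single clusters went both ways. HoxB held 21.7 peaks per Mb in that library against 2.72 in its flanks, from only 4 peaks and 1 peak. HoxA in untreated Htt+/+ cortex held 27.6 against 36.9, from 3 and 8 peaks.

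The clusters differed among themselves. HoxA had 3, 6, 14 and 2 peaks, HoxB 10, 6, 10 and 4, HoxC 4, 4, 9 and 0, and HoxD 8, 5, 7 and 2. The 14 peaks of HoxA in untreated HttQ111/+ cortex were 6.95 times the genome density (3.8 to 11.7), the highest of the 16 values, while HoxB and HoxD held the most peaks of the clusters in untreated Htt+/+ cortex. The absence of peaks in HoxC in the ASO-treated HttQ111/+ library allows up to 1.87 times the genome density, so fewer peaks than the genome average were not detectable at this depth.

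**Figure D4:**
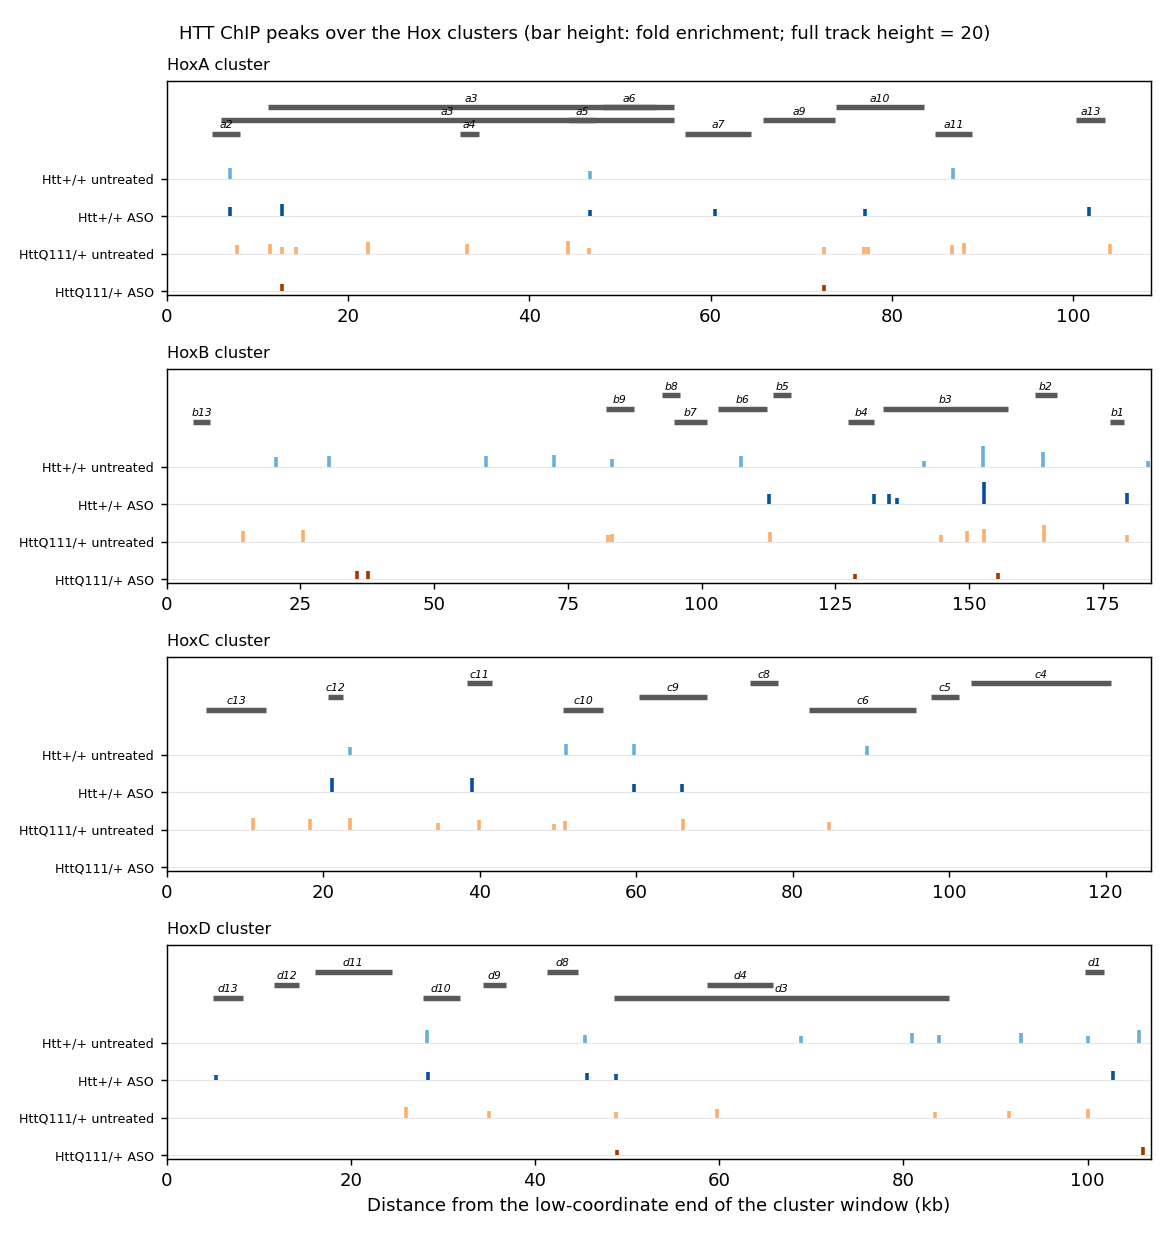
HTT ChIP peaks (coloured bars, height proportional to fold enrichment) in the 4 libraries over each Hox cluster, with the members as grey bars (a3 has 2 annotated models), against the distance in kb from the low-coordinate end of the cluster window. The 14 peaks of the untreated HttQ111/+ library in HoxA, the tall Hoxb3 bars in both Htt+/+ tracks and the empty HoxC track of the ASO-treated HttQ111/+ library can be seen.

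Among the genes outside the Hox clusters, Otx1, a cortical and sensory organ gene that is expressed in deep cortical layers, had 2 recurrent regions. The region in its intron (chr11:21901963-21902317) had a fold enrichment of 6.94 from 9 reads in ASO-treated Htt+/+ and 8.28 from 8 reads in untreated HttQ111/+ cortex. The region at its start had 5.74 and 4.7 in both untreated libraries, from 4 and 3 reads. Otx2, needed for formation of the head, had an intronic region with peaks in the 2 ASO-treated libraries, 4.96 in Htt+/+ and 5.72 in HttQ111/+ mice, from 3 and 4 reads.

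The Dlx genes, which drive development of cortical interneurons, had peaks at all 4 members in both untreated libraries. Dlx2 had a coding exon region with 4.82 in ASO-treated Htt+/+ and 9.28 in untreated HttQ111/+ cortex, from 6 and 9 reads, and a region at its start with 4.35 and 4.57 in both untreated libraries. Dlx1 had a region near its start with 4.47 in untreated Htt+/+ and 3.05 in ASO-treated HttQ111/+ cortex, from 8 and 7 reads. Dlx6 had peaks of 4.06, 4.71 and 6.19 in all libraries but the ASO-treated HttQ111/+ one, at sites that formed no recurrent region. Dlx5 had 4.87 and 4.74 in the untreated libraries.

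Lhx2, a LIM homeobox gene that specifies cortex, had an intronic region in both HttQ111/+ libraries, with 6.75 untreated from 5 reads and 3.72 with the ASO from 8 reads, and no peak in either Htt+/+ library. Pax6, which controls cortical progenitors and the eye, had 3 peaks in ASO-treated Htt+/+ and 5 in untreated HttQ111/+ cortex and none in the other 2 libraries. The 2 sets met in 1 recurrent region in untranslated sequence (4.71 and 4.38). Six3 had 5 peaks and Six2 4 peaks in the untreated HttQ111/+ library, and none at either gene came from untreated Htt+/+ or ASO-treated HttQ111/+ cortex. Lhx5 was the reverse, with 3 peaks in untreated Htt+/+ cortex alone.

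Meis1 and Meis2, TALE-class homeobox genes whose proteins act as Hox cofactors, had peaks in all 4 libraries, and so did Hoxa2, Hoxa3, Hoxb3 and Hoxd3. The highest fold enrichment at Meis1 was 5.82, 5.47, 8.76 and 4.41 in the order used above, and at Meis2 5.82, 5.11, 6.19 and 4.78. Both genes are long (138529 and 202776 bases), so their windows take in more sequence than those of the other members, and Meis1 had no recurrent region. Meis2 had 1, in an intron (chr2:115886654-115886995), with 5.71 in untreated Htt+/+ and 4.78 in ASO-treated HttQ111/+ cortex, from 5 reads each. Emx1, a marker of the dorsal forebrain lineage, had 7.6, 4.74 and 2.92 in all libraries but untreated Htt+/+, at different sites. Its relative Emx2 and the midbrain gene En2 had no peak in any library, and the ventral forebrain gene Nkx2-1 and its relative Nkx2-2, and Lhx1, had 1 peak each, in untreated HttQ111/+ cortex.

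Of the 9 members known to be expressed in adult cortex (Dlx1, Dlx5, Dlx6, Lhx2, Lhx6, Otx1, Emx1, Emx2 and Meis2), 6, 4, 8 and 4 had a peak in the 4 libraries and 4 had a recurrent region. The peak shares were 66.7%, 44.4%, 88.9% and 44.4%, against 48.7%, 47.4%, 53.2% and 39.9% of all protein-coding genes. The share with a recurrent region was 44.4% (exact interval 13.7% to 78.8%), against 23.8%. Each exact interval of these 9 members included the protein-coding value, so a difference was not detectable with so few genes. Over all members, 11 had no peak in any library, 12 had peaks in 1 library, 17 in 2, 12 in 3 and 6 in all 4. For all protein-coding genes these shares were 20.5%, 22.7%, 21.0%, 18.9% and 17.0%, and for the members 19%, 20.7%, 29.3%, 20.7% and 10.3%.

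Whether HTT lowering changed occupancy at these genes is the question of the ASO comparison. In Htt+/+ mice the ASO library held 40 distinct peaks at the members and the untreated library 33, a ratio of 1.21 (exact 95% interval 0.745 to 1.98) against 0.9 for all protein-coding windows. In HttQ111/+ mice the libraries held 13 and 69 peaks, a ratio of 0.188 (0.0955 to 0.344). The same ratio was 0.697 for all protein-coding windows, 0.591 for the top promoter-GC quartile and 0.299 (0.23 to 0.384) for the other homeobox genes. The number of peaks at the members was thus lower with the ASO in the HttQ111/+ libraries and not distinguishable by counting error in the Htt+/+ libraries. Over all peaks of the main chromosomes the ratio in HttQ111/+ mice was 0.845.

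A ratio below 1 in HttQ111/+ mice was shared by gene starts in general. Within 5 kb of the start the ratio was 0.157 (0.0643 to 0.333) for the members, 0.42 for all protein-coding genes, 0.228 for the top promoter-GC quartile and 0.144 for the other homeobox genes. Within 1 kb it was 0.1 (0.0113 to 0.412) for the members, 0.228 for all protein-coding genes and 0.134 for the top quartile. The interval of the members included the value of the top promoter-GC quartile in both windows. It lay below the value of all protein-coding genes within 5 kb and included it within 1 kb. With the gene body included, the members' interval lay below the quartile's 0.591. The part of the low share of peaks near starts in this library, given above, in the values of the members was not tested.

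Gene by gene, 30 of 58 members (51.7%) had a peak in untreated HttQ111/+ cortex and none with the ASO, against 25.4% of all protein-coding genes. Only 2 (3.45%), Hoxb4 and Otx2, had the reverse, against 12.0% of protein-coding genes. In Htt+/+ mice 12 members (20.7%) had a peak with the ASO alone (background 16.1%) and 10 (17.2%) in the untreated library alone (background 17.4%). The 30 members, many of which also had a peak in an Htt+/+ library, comprised 19 of 38 Hox genes and 11 of the 20 others.

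In the genotype comparison the untreated libraries held 69 peaks at the members in HttQ111/+ and 33 in Htt+/+ mice, a ratio of 2.09 (1.36 to 3.27) against 1.14 for all protein-coding windows and 1.5 for the other homeobox genes. With the ASO the ratio was 0.325 (0.159 to 0.62) against 0.886 and 0.433. Within 5 kb of the start the untreated ratio was 2.22 (1.33 to 3.8) for the members and 1.44 for the top promoter-GC quartile, and the ratio with the ASO was 0.267 (0.106 to 0.595) against 0.296. The interval of the members included the value of the quartile in both, in this window chosen after seeing the data. With the gene body included, the quartile's ratios were 1.2 untreated and 0.796 with the ASO. Both lay outside the members' intervals in that window. A peak was present in untreated HttQ111/+ cortex and absent from untreated Htt+/+ cortex at 17 members (29.3%, background 18.4%). These include Pax6, Lhx2, Six2, Six3 and both Nkx2 genes. The opposite held at 3 members, Hoxb6, Hoxd8 and Lhx5 (5.17%, background 13.9%). With the ASO, 2 members, Dlx1 and Lhx2, had a peak in HttQ111/+ cortex alone (3.45%, background 14.0%) and 18 in Htt+/+ cortex alone (31.0%, background 21.5%). The comparisons share libraries, so their values are not independent of each other.

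**Figure D5:**
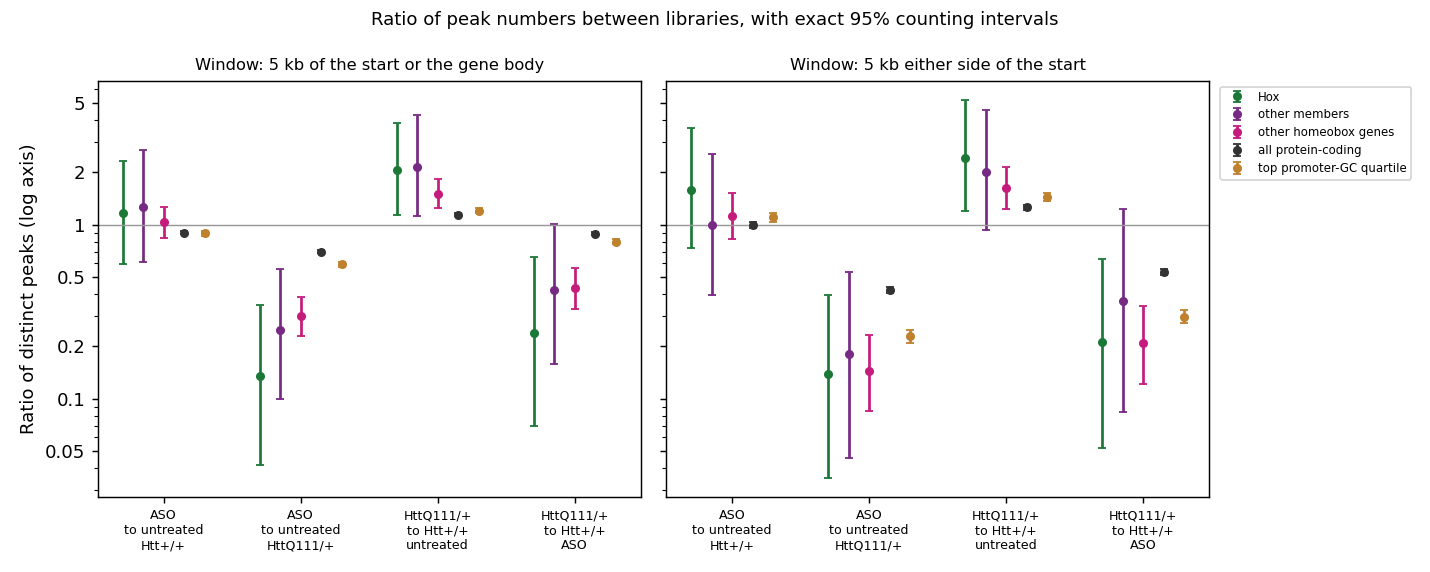
Ratio of the number of distinct peaks between libraries (y axis, log scale) for the 4 comparisons (x axis), with the gene body included (left) and for the 5 kb either side of the start (right). Points are ratios, bars exact 95% counting intervals, and colours the groups of genes. In HttQ111/+ mice the ASO ratio was below 1 in all 5 groups and lowest for the Hox genes on the left (0.135), and on the right the intervals of the Hox genes (0.0352 to 0.393) and the other members include the value of the top promoter-GC quartile (0.228).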

How the data were processed

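The deposited files are MACS2 peak lists, 1 for each of 4 HTT ChIP libraries. Per the labels the authors aligned reads to mm9 with HISAT2 (bcl2fastq 2.17 for base calls), down-sampled each ChIP library to match the smallest, pooled the 4 inputs as a common control and ran the peak caller on each library with scaling to that control. The methods of the study name mm10. The files were read as mm9, since of 22629 strong peaks 18.0% lay close to either end of a coding gene with NCBIM37 positions and 4.5% with those of GRCm38. For each peak the authors deposited a fold enrichment at the summit (a ratio to local input), a −log10 p-value, a −log10 q-value and a score of 10 times the −log10 p-value, truncated. No deposited peak had a −log10 p-value below 3.

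Gene windows used GENCODE vM1 and the genome sequence of NCBIM37. Hoxa3 has 2 annotated models, which were joined. Each Hox cluster was bounded by its members rather than, as planned, by all annotated Hox genes, a choice made after the data were seen, because some items are not reported here. Reads at each summit were recovered from the fold enrichment and p-value as whole numbers, which matched 100% of peaks within 0.01 of the deposited value, and the input background was 3.63 reads per kb, equal to 1.10 to 1.36 reads per kb of ChIP library. The recovery and the region search were tested on simulated data. Recurrent regions were merged peaks with q below 0.01 in at least 2 of 4 libraries. DiffBind and the ENCODE list of artefact regions were not used here. Shares carry exact Clopper-Pearson intervals and densities exact Poisson intervals at 95%, and ratios of peak numbers exact binomial ones. Python 3.11.15, numpy 2.4.6, pandas 2.3.3 and scipy 1.17.1 were used. The 58 members and all lists were chosen with earlier results of these data known. Of 143 other homeobox genes listed, 140 matched the annotation. Named genes were all members with a recurrent region, those with peaks in at least 3 libraries, the 5 with the highest fold enrichment and at least 1 of each family. Alternatives were other q values, read minimums, windows, overlaps and libraries left out, and 1 window was added after the data were seen.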

Additional observations from a re-analysis of the deposited data

Results flagged for a closer look

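Some differences between libraries pointed in opposite directions in the 2 genotypes or the 2 treatments. None was tested, since each group is 1 library. The ASO to untreated ratio of distinct peaks at the members was 1.21 in Htt+/+ (exact 95% interval 0.745 to 1.98, which includes 1) and 0.188 in HttQ111/+ mice, and the HttQ111/+ to Htt+/+ ratio was 2.09 untreated and 0.325 with the ASO. Over the 4 Hox clusters taken whole, the ASO ratio was below 1 in both genotypes, at 0.84 (0.447 to 1.56) in Htt+/+ and 0.2 (0.0809 to 0.433) in HttQ111/+ mice. The first pair and the second pair are made from the same 4 peak numbers.

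For the highest peak of a window, the log2 ratio of fold enrichment with the ASO to that without it was 0.09 in Htt+/+ and -0.54 in HttQ111/+ mice at Hoxa2, 0.09 and -0.95 at Hoxa3, and 0.11 and -1.09 at Hoxb3. The log2 ratio of HttQ111/+ to Htt+/+ was 0.23 untreated and -0.81 with the ASO at Hoxa3, 0.59 and -0.31 at Meis1, and 0.09 and -0.1 at Meis2. These values compare the highest peak of each library wherever it lies in the window, and most rest on 3 to 8 reads. Hoxa2 and Hoxa3 are not separate cases. Their highest peak is the same in both Htt+/+ libraries and in the ASO-treated HttQ111/+ library.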

How the results depend on the processing

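No paired analysis was possible because each group holds 1 library. Of 86 alternative values, 61 stayed within the counting interval or within 1.5 times the reported count, 23 moved further and 2 turned to the other side of 1.

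With only peaks of at least 5 reads, 16 members had a peak in untreated Htt+/+, 25 in untreated HttQ111/+ and 7 in ASO-treated HttQ111/+ cortex. Within 1 kb of the start 11 and 15 members did in the untreated and ASO-treated Htt+/+ libraries and 18 and 2 in those of HttQ111/+ mice, and within 20 kb 51 and 49 in the Htt+/+ libraries and 30 in the ASO-treated HttQ111/+ library. The density relative to protein-coding windows with at least 5 reads was 3.15 and 3.4 in the Htt+/+ libraries, 4.61 in untreated HttQ111/+ and 1.95 in ASO-treated HttQ111/+ cortex, the last reversed from 0.76 and resting on 6 peaks. Within 1 kb of the start it was 1.78 in untreated HttQ111/+ cortex. The Hox cluster density with at least 5 reads was 7.27, 7.63 and 9.25 times that of the genome in these libraries, and 2.87 in ASO-treated HttQ111/+ cortex, reversed from 0.972 and resting on 3 peaks. Relative to the flanks it was 1.56 and 2.11 in the untreated libraries. Members with a recurrent region numbered 5 with at least 3 libraries required, 43 within 20 kb of the start and 10 to 20 with 1 library left out. With at least 3 libraries this was 8.62% of the members, against 5.88% of all protein-coding genes. The counts of members with a peak in this section, and the count within 20 kb, stand without that share and do not compare members with other genes. The cause of the moves under the alternatives was not tested. The ratios between libraries kept their direction under all alternatives tried. Few reads lie behind each peak, and a gene without a peak may hold reads below the authors' threshold.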
